A study of Arabidopsis thaliana with 6 samples.

Results

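Core histones are the proteins around which DNA is wound in chromatin. The genes described here are 37 Arabidopsis thaliana loci listed by name, with no threshold on a measured value, out of 28775 loci in the count table. Replication-coupled genes number 26, with 8 for H4, 5 for H3.1, 4 for H2A and 9 for H2B. Variant genes number 11, with 3 for H3.3, 2 for H2A.X, 3 for H2A.W and 3 for H2A.Z. RNA was taken from inflorescence apices of plants kept at 21 °C under long days, with 16 h lit and 8 h dark. At 2 weeks after bolting the apices received either a mock treatment (libraries CT1, CT2 and CT3) or dexamethasone (libraries Dx4, Dx5 and Dx6), and they were collected 6 to 8 h later without the flower primordia that could be seen. Dexamethasone, a synthetic glucocorticoid, allowed expression of AP2m3, a version of APETALA2 (AP2), a transcription factor of flowers and meristems. Of the background line, the promoter of the construct and the number of plants per sample, the sources used here say nothing. An effect of AP2m3 and an effect of dexamethasone itself cannot be told apart in these 2 groups.

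Replication-coupled histones are made mainly in S phase, when each new stretch of DNA needs new nucleosomes. Variant histones can be built into chromatin outside S phase or in particular places. H3.3 replaces H3.1 at active genes, H2A.Z is placed by the SWR1 complex near the starts of genes, H2A.X is phosphorylated at DNA breaks, and H2A.W is the H2A of plant heterochromatin. Plant core histone mRNAs carry poly(A) tails, so a poly(A) library such as this one holds them.

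Levels below are read counts scaled to the size of each library (CPM), and changes are log2 fold changes of dexamethasone over mock ± SE from edgeR's quasi-likelihood test on 3 libraries a group. Adjustment of p (Benjamini-Hochberg) ran over all 15857 genes that passed the filter on low counts, and a gene was called below 0.05. The libraries held 1633571 to 2196781 counts. AP2 stood at 55.7, 60.5 and 78.1 CPM in the mock libraries and at 1100, 1187 and 1009 CPM with dexamethasone, which is a log2 fold change of 4.08 ± 0.15 (adjusted p = 2.8e-13). Of the apex markers, STM stood at 61.4 to 78.6 CPM and KNAT1 at 67.9 to 104.8 CPM over the 6 libraries, WUS was too low to test and CLV3 had no count in any library.

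With dexamethasone, transcripts of most replication-coupled histone genes rose, by 1.31-fold to 1.99-fold in means, and 3 of 11 variant genes did. Of the 37 genes 36 passed the filter on low counts, and 21 of these (58.3%) were higher and 0 lower. Over all genes tested, 5.86% were called higher and 8.02% lower, and among the 11064 genes whose mean reached 20 CPM, 6.75% were called higher. At an unadjusted p under 0.05, 26 histone genes were higher and 0 lower. The share of all genes past that unadjusted p is not given here. By DESeq2 (Wald test) 19 histone genes were higher and 0 lower, by limma-voom 21 and 0. Over all 15857 genes DESeq2 called 549 higher and 815 lower, and limma-voom 900 and 1153. In 25 of the 36 genes (69.4%) all 3 dexamethasone libraries lay above all 3 mock libraries, against 15.1% of all genes tested, and in 0 did they lie below, against 15.9%. The median log2 fold change of the 36 genes was 0.51, against 0.0035 over all genes tested, whose quartiles were -0.24 and 0.22. These were bulk samples, so more cells in S phase and more histone RNA per cell cannot be told apart.

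Replication-coupled genes were called higher in 18 of 25 cases (72%), with a median log2 fold change of 0.53. Variant genes were called higher in 3 of 11 (27.3%), with a median of 0.34. The difference between the 2 kinds of gene was not tested. The CPM of all replication-coupled genes summed to 5503, 4516 and 4301 in CT1, CT2 and CT3 and to 6645, 6778 and 7023 in Dx4, Dx5 and Dx6, so the groups did not overlap. Variant genes summed to 3011, 2572 and 2292 in mock and 2895, 2868 and 3007 with dexamethasone, where CT1 lay as high as the dexamethasone libraries. All 37 genes together took 0.729% of counts in mock and 0.972% with dexamethasone.

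**Figure D1:**
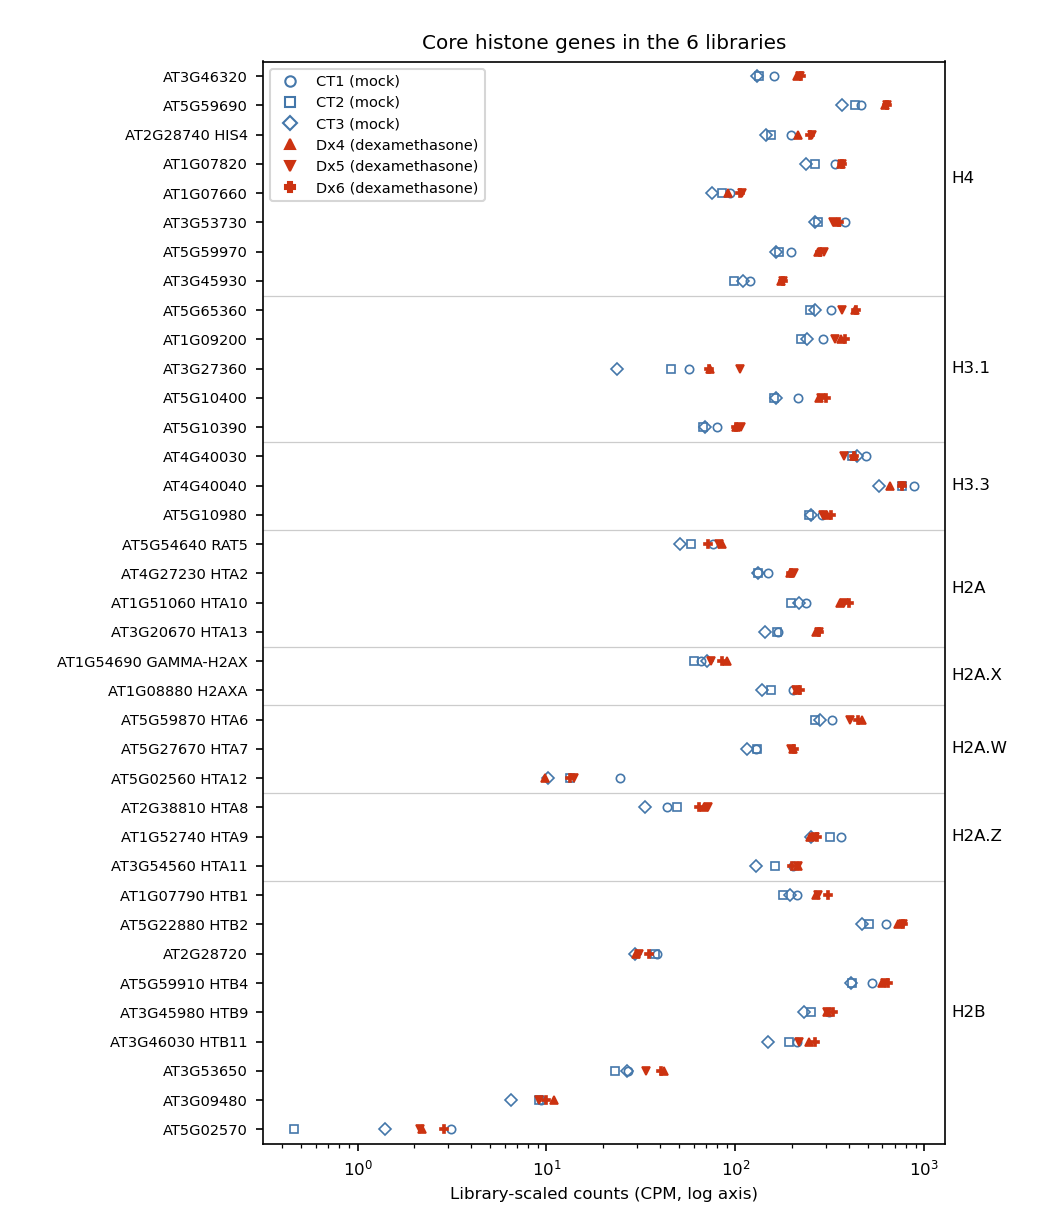
CPM of each of the 37 genes (log axis) in the 6 libraries, with open blue symbols for mock and filled red symbols for dexamethasone, ordered by class. In 25 of 36 tested genes the red symbols all lie to the right of the blue ones, and in no gene do they all lie to the left.

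**Figure D2:**
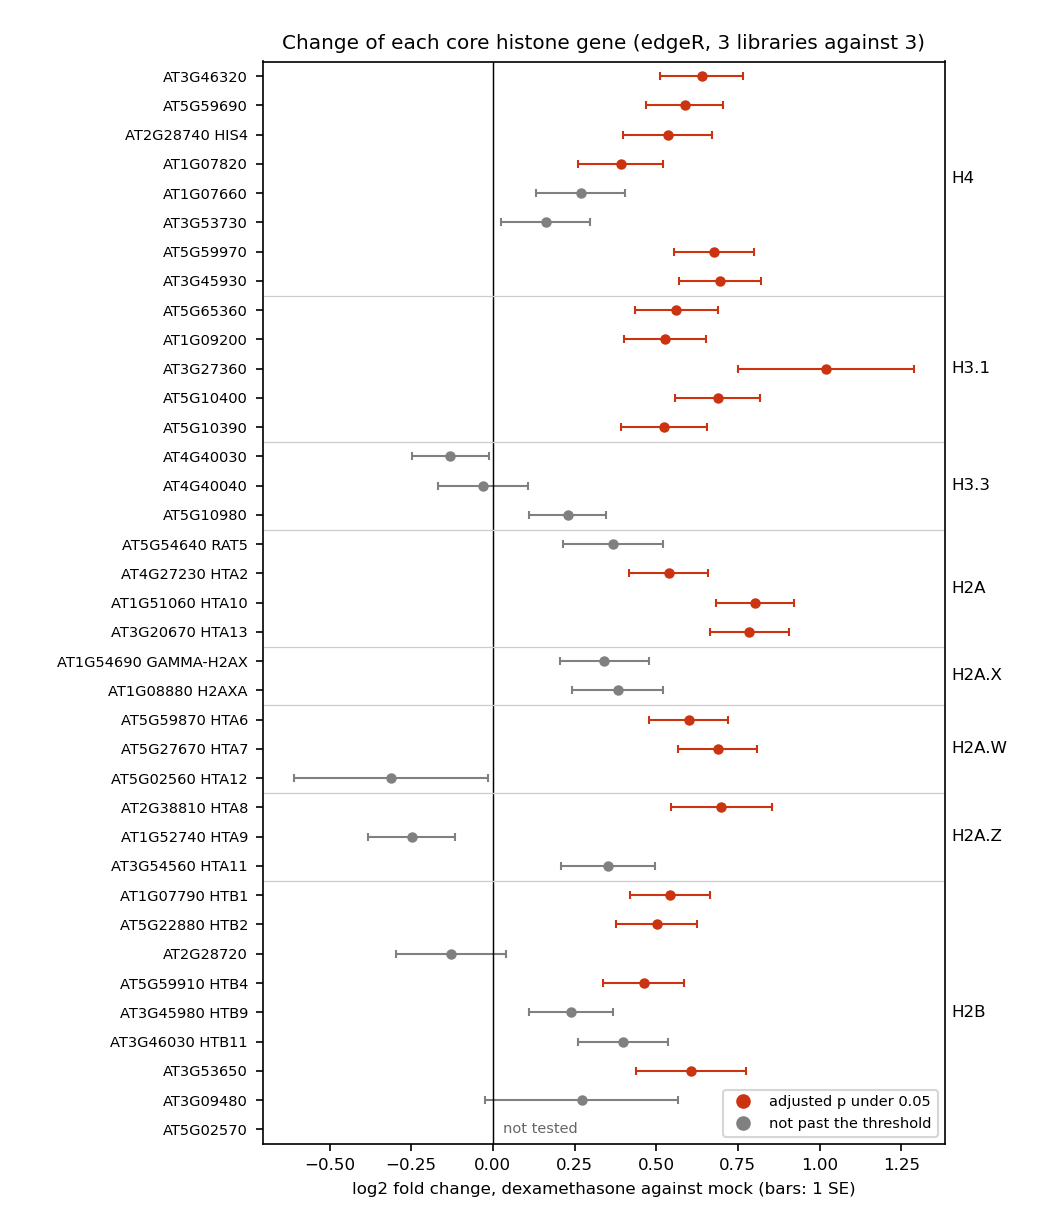
Log2 fold change of each gene, dexamethasone over mock, with bars of 1 SE from edgeR (3 libraries a group). Red points passed an adjusted p of 0.05: 18 replication-coupled and 3 variant genes, at 0.39 to 1.02.

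Single libraries weighed on how many genes passed. Without CT2 12 histone genes were called higher, without Dx6 11, without Dx4 or Dx5 15, without CT3 22 and without CT1 26. The calls over all genes shifted as well, from 929 of 15857 higher with all libraries. They were 480 of 16014 without CT2, 441 of 16060 without Dx6, 512 of 16240 without Dx4 and 463 of 16226 without Dx5. Without CT3 they were 1816 of 16057 and without CT1 837 of 16218. Of the 21 histone genes called with all libraries, 11 were called in all 6 of the fits that left out a library: 8 replication-coupled genes (the H4 genes AT3G46320, AT5G59690, AT5G59970 and AT3G45930, the H3.1 gene AT5G10400, and the H2A genes HTA2, HTA10 and HTA13) and all 3 variant genes (HTA6, HTA7 and HTA8). The other 10 were each lost in 1 to 4 of the fits, with their values given beside them below.

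The promoters of these genes were read in the RefSeq genome TAIR10.1, from 250 bases before to 50 after the annotated gene start, and both strands were searched. The histone octamer CGCGGATC, a promoter element known from plant H3 and H4 genes, was present in 9 of 37 (24.3%), against 40 of 27561 protein-coding genes (0.145%). By class these were 3 of 5 H3.1, 2 of 8 H4, 2 of 4 H2A, 1 of 3 H3.3 and 1 of 3 H2A.W promoters, and 0 of 9 H2B promoters. The windows of 30 bases below hold every octamer found, in capitals and in the direction of the gene (GATCCGCG is the octamer on the other strand). They let its surroundings be read in genes of different classes, and how alike these are was not measured.
AT5G59690 (H4, chr5:24051392-24051421): cactgccatcaCGCGGATCactaatatgaa
AT1G07660 (H4, chr1:2368696-2368725): tacagatttcaCGCGGATCgcaatcttgga
AT5G65360 (H3.1, chr5:26120689-26120718): tttagacgtgaCGCGGATCactaaaattaa
AT1G09200 (H3.1, chr1:2972406-2972435): tcgtaccttcaCGCGGATCagtgttagaaa
AT1G09200 (H3.1, chr1:2972335-2972364): ctgtgatttcaCGCGGATCgtgatagaaac
AT5G10400 (H3.1, chr5:3271059-3271088): ttaacacaggaCGCGGATCgtaaagataca
AT4G40040 (H3.3, chr4:18558944-18558973): tttatttcagcGATCCGCGacggtttgtat
AT1G51060 (H2A, chr1:18926726-18926755): attcactctgaCGCGGATCctgaatctcga
AT1G51060 (H2A, chr1:18926790-18926819): tgataaacagcGATCCGCGtagtttcttct
AT3G20670 (H2A, chr3:7229311-7229340): gcagtaacatcGATCCGCGtgattgtttat
AT5G59870 (H2A.W, chr5:24116318-24116347): atacatagtcaCGCGGATCgtgctttattt
The genes lie on the minus strand for AT5G65360, AT1G09200, AT5G10400, AT4G40040 and AT5G59870 and on the plus strand for the others.

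Of the 9 genes with the octamer 7 were called higher, and the 2 without a call were the H4 gene AT1G07660 and the H3.3 gene AT4G40040. Of the 27 tested genes without it 14 were called higher. The octamer was therefore neither present in most of the genes that rose nor absent from those without a call.

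The hexamer ACGTCA, another element known from plant histone promoters, was present in 12 of 37 (32.4%) against 9.17% of all promoters, and in 8 of 9 H2B promoters (88.9%). Of the 7 tested H2B genes with it 4 were called higher. Windows of 28 bases, with the hexamer in capitals, are shown for the called H2B genes that hold it before the gene start (HTB1, HTB2 and AT3G53650) and for HTB11, which missed the threshold. In HTB4, the other called H2B gene with a hexamer, it lies after the gene start.
HTB1 (AT1G07790, plus strand, chr1:2412896-2412923): gagaaatatacACGTCAatgatcctcgt
HTB2 (AT5G22880, minus strand, chr5:7652893-7652920): caaaagtaaccACGTCAgctatccacgc
HTB11 (AT3G46030, minus strand, chr3:16914203-16914230): taatatattccACGTCAtcaatcctcgt
AT3G53650 (plus strand, chr3:19889190-19889217): ggatggatgacACGTCAtcgatccgcaa
The nonamer CATCCAACG and the E2F form TTTCCCGC were in none of the 37 windows, against 0.174% and 0.795% of all promoters. The E2F form TTTGGCGC was in 2 H4 windows, against 0.432% of all promoters. TATAAA was in 69.2% of replication-coupled and 27.3% of variant windows, against 52.1% of all. The octamer and the hexamer share no overlapping occurrence.

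A called and an uncalled gene are set side by side here by the 250 bases before their starts, with octamer, hexamer (TGACGT on this strand) and TATAAA in capitals. The H3.1 gene AT5G10400 rose and holds all of these elements, and the H2A.Z gene HTA9 (AT1G52740) was not called and holds none of them in this window. Other genes did not follow this contrast. HTA2 and HTA7 were called and hold none of these elements in their promoter windows. The H4 gene AT1G07660 holds the octamer and TATAAA and was not called.
AT5G10400 (minus strand, chr5:3270958-3271207): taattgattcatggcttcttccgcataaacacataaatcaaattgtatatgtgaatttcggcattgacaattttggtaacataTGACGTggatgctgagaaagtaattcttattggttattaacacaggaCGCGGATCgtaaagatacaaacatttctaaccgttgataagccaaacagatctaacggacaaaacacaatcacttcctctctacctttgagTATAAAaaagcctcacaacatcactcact
HTA9 (AT1G52740, plus strand, chr1:19644986-19645235): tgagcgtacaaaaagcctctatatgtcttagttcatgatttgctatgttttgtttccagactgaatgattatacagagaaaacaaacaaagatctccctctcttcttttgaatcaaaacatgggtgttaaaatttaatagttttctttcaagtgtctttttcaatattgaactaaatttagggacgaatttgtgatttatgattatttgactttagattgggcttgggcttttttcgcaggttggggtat
A match describes these letters only and is not evidence of binding.

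H4, the partner of H3 in the nucleosome, is encoded by 8 genes that all give 1 protein. Transcripts of 6 of the 8 rose. The gene with the highest level, AT5G59690, stood at 459, 430 and 367 CPM in mock and 615, 636 and 634 CPM with dexamethasone. This was a log2 fold change of 0.59 ± 0.12 (adjusted p = 0.0020). AT3G45930 changed most, from 120, 98.1 and 110 CPM to 173, 178 and 178 CPM, or 0.70 ± 0.13 (adjusted p = 0.00078). In both genes the groups were apart, with the mock libraries more spread than the dexamethasone ones. AT5G59970 rose from 177 ± 17 to 282 ± 11 CPM (mean ± SD, n = 3), by 0.68 ± 0.12 on the log2 scale. For AT3G46320 the means were 140.5 ± 17 and 218 ± 5.4 CPM, and the log2 fold change was 0.64 ± 0.13. HIS4 (AT2G28740) rose by 0.53 ± 0.14 (adjusted p = 0.011), a call lost without CT2, Dx5 or Dx6 (highest adjusted p = 0.0905 without Dx5). AT1G07820 rose by 0.39 ± 0.13 (adjusted p = 0.049), just inside the threshold. Its call was lost without CT2, Dx4, Dx5 or Dx6 (highest 0.194 without CT2), with DESeq2's size factors (0.0516) and in the DESeq2 Wald test (0.0883).

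The H4 genes without a call were AT1G07660, at 84.7 ± 9.6 and 102 ± 8.9 CPM, and AT3G53730, at 306 ± 66 and 341 ± 12 CPM. Their log2 fold changes were 0.27 (adjusted p = 0.21) and 0.16 (adjusted p = 0.50). CT1 lay within or above the dexamethasone libraries in both. AT1G07820 and AT1G07660 have coding sequences that are 98.1% identical, and AT1G07660 shares 30.8% of its 50-base words with other genes. AT3G46320 and AT3G45930 share 27.9% and 25.7% of their words, each with the other. Reads in those stretches could have been divided between the genes of a pair or set aside, so their single values are uncertain. The H4 sum is less so if such reads were divided, but reads set aside are missing from the sum too. That sum was 1944, 1606 and 1490 CPM in mock and 2284, 2385 and 2385 CPM with dexamethasone.

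H3.1 is the H3 deposited behind the replication fork by the CAF-1 chaperone. All 5 of its genes rose, and all 5 encode 1 protein. AT5G65360, the gene with the highest level, stood at 321, 249 and 264 CPM in mock and at 427, 366 and 436 CPM with dexamethasone, or on the log2 scale 0.56 ± 0.13 (adjusted p = 0.0051). AT5G10400 went from 213, 161 and 165 CPM to 278, 284 and 303 CPM, or 0.69 ± 0.13 (adjusted p = 0.0012). AT5G10390, its direct neighbour, went from 71.9 ± 6.6 to 103 ± 4.0 CPM (0.52 ± 0.13, adjusted p = 0.010). The groups did not overlap in any of the 5 genes. AT1G09200 went from 250 ± 36 to 360 ± 21 CPM (0.53 ± 0.13, adjusted p = 0.0073). AT3G27360 had the largest change of all 36 histone genes, from 57.0, 45.4 and 23.7 CPM to 73.4, 105 and 72.4 CPM, at 1.02 ± 0.27 (adjusted p = 0.033). It is also the least certain of the 5 H3.1 genes, since 35.6% of its words lie in another gene and it overlaps AT3G27380 by 328 bases on the same strand. Without single libraries its log2 fold change ran from 0.72 to 1.27.

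Calls of 4 of the 5 H3.1 genes depended on single libraries. AT5G65360 and AT1G09200 were lost without CT2, Dx4 or Dx6, AT5G10390 without CT2, Dx5 or Dx6, and AT3G27360 without CT2, Dx4, Dx5 or Dx6. The highest adjusted p in these fits was 0.064 for AT5G65360 and 0.0798 for AT1G09200, both without Dx6, and 0.0702 for AT5G10390 and 0.0871 for AT3G27360, both without Dx5. AT5G10400 was called in all 6.

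H3.3, the replacement H3, differs from H3.1 by 4 residues in the pair compared here, and its 3 genes did not pass the test in either direction. At an unadjusted p under 0.05 edgeR gave 0 of 3, as did DESeq2 and limma-voom at their adjusted thresholds. AT4G40040 had the highest level, at 881, 766 and 577 CPM in mock and 657, 757 and 762 CPM with dexamethasone. Its log2 fold change was -0.03 ± 0.14 (adjusted p = 0.93), and the mock libraries spanned the dexamethasone ones. The sign of this value turned to 0.11 without CT1 and to 0.03 without Dx4. Its direct neighbour AT4G40030 stood at 447 ± 40 and 408 ± 29 CPM (-0.13 ± 0.12, adjusted p = 0.53). AT5G10980, with the largest change of the class, stood at 261 ± 23 and 306 ± 14 CPM (0.23 ± 0.12, adjusted p = 0.23), with no overlap of the groups.

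The H3.1 and H3.3 messages can be told apart by sequence, which bears on whether the counts of these classes are separate. The coding sequences of AT5G65360 and AT5G10980 differ at 81 of 411 bases (80.3% identity), and no H3.3 gene shares a 50-base word with another gene. Coding bases 79 to 138 of both, which include the codons of residues 31 and 41, are shown with the bases that differ in capitals.
AT5G65360 (H3.1): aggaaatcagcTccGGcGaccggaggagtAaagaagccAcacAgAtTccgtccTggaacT
AT5G10980 (H3.3): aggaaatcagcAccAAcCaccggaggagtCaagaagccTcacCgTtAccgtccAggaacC
Within these 60 bases 11 differ.

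The sums of the 2 kinds of H3 gene moved apart. H3.1 genes summed to 961, 745 and 759 CPM in mock and to 1240, 1200 and 1292 CPM with dexamethasone. H3.3 genes summed to 1659, 1423 and 1267 CPM and to 1387, 1423 and 1508 CPM. The ratio of H3.1 to H3.3 was 0.580, 0.524 and 0.599 in the mock libraries and 0.894, 0.843 and 0.857 in the dexamethasone libraries. These ratios did not overlap between groups and were given no test, as the genes were a chosen set.

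**Figure D3:**
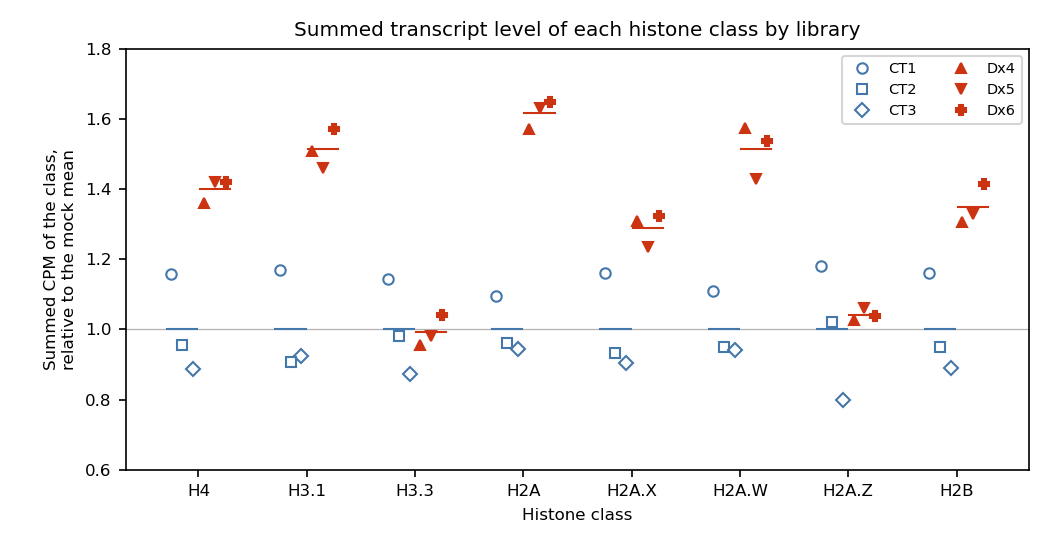
Summed CPM of each histone class in each library, divided by the class's mock mean, with a bar at each group mean (3 libraries a group). The dexamethasone means of H4, H3.1, H2A, H2A.X, H2A.W and H2B lie clear of all mock libraries, while those of H3.3 and H2A.Z lie among them.

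Canonical H2A is encoded here by RAT5, HTA2, HTA10 and HTA13, and 3 of the 4 rose. HTA10 (AT1G51060) stood at 236, 197 and 217 CPM in mock and at 357, 374 and 401 CPM with dexamethasone. Its log2 fold change of 0.80 ± 0.12 had the smallest adjusted p of all the histone genes, 0.00013. HTA13 (AT3G20670) went from 168, 165 and 143 CPM to 266, 278 and 275 CPM, or 0.79 ± 0.12 (adjusted p = 0.00018). HTA2 (AT4G27230) went from 137 ± 9.6 to 198 ± 5.0 CPM (0.54 ± 0.12, adjusted p = 0.0050). RAT5 (AT5G54640), the H2A gene known from its need in Agrobacterium transformation of roots, stood at 61.9 ± 13 and 79.2 ± 6.5 CPM (0.37 ± 0.15, adjusted p = 0.12). CT1, at 76.4 CPM, lay within its dexamethasone range.

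The variants of H2A did not move alike. Of the H2A.W genes, HTA6 (AT5G59870) stood at 324, 265 and 280 CPM in mock and 466, 402 and 444 CPM with dexamethasone (0.60 ± 0.12, adjusted p = 0.0021). HTA7 (AT5G27670) stood at 129, 130 and 115 CPM and at 201, 198 and 203 CPM (0.69 ± 0.12, adjusted p = 0.00065). Both rose with no overlap of the groups. HTA12 (AT5G02560), the third, was far lower, at 16.0 ± 7.5 and 12.4 ± 2.2 CPM (-0.31 ± 0.30, adjusted p = 0.56). It overlaps the H2B gene AT5G02570 on the opposite strand over 522 bases, and since the strand setting of the counting is not given in the sources used here, reads of the 2 genes cannot be told apart.

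H2A.Z, the variant linked to gene starts and to temperature responses, had 1 of 3 genes called. HTA8 (AT2G38810) rose from 43.2, 49.1 and 33.0 CPM to 68.0, 71.2 and 64.3 CPM (0.70 ± 0.15, adjusted p = 0.0041). HTA9 (AT1G52740), the H2A.Z gene with the highest level, stood at 363, 315 and 250 CPM in mock and 247, 262 and 270 CPM with dexamethasone (-0.25 ± 0.13, adjusted p = 0.25). CT3 alone lay among its dexamethasone libraries, and without CT3 HTA9 was called lower (-0.38, adjusted p = 0.0022), the 1 call in that direction among all histone genes and fits that left out a library. HTA11 (AT3G54560) stood at 164 ± 36 and 209 ± 7.5 CPM (0.35 ± 0.14, adjusted p = 0.12). Together the H2A.Z genes summed to 608, 526 and 412 CPM and to 528, 546 and 534 CPM. The ratio of canonical H2A to H2A.Z was 1.03, 1.05 and 1.32 in mock and 1.71, 1.71 and 1.77 with dexamethasone, and that of H2A.W to H2A.Z was 0.786, 0.776 and 0.983 in mock and 1.28, 1.12 and 1.24 with dexamethasone.

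Neither H2A.X gene passed the threshold, although at an unadjusted p under 0.05 edgeR gave both as higher and their groups did not overlap. DESeq2 and limma-voom called 0 of 2. H2AXA (AT1G08880) stood at 202, 155 and 138 CPM in mock and at 212, 210.3 and 220 CPM with dexamethasone (0.38 ± 0.14, adjusted p = 0.073). CT1 lay close below the dexamethasone libraries, and without it the gene was called higher (0.54, adjusted p = 0.0056), as it was with no filter beyond 1 count (0.39, adjusted p = 0.0337). GAMMA-H2AX (AT1G54690) stood at 65.7 ± 5.1 and 83.2 ± 8.0 CPM (0.34 ± 0.14, adjusted p = 0.11). Of its words 57.0% lie in overlapping genes on the opposite strand, so its counts are uncertain.

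H2B, the partner of H2A, is encoded by 9 genes that give 9 distinct proteins, and 4 of the 8 tested rose. HTB2 (AT5G22880) stood at 625, 510 and 465 CPM in mock and 723, 769 and 769 CPM with dexamethasone (0.50 ± 0.12, adjusted p = 0.0092). It had the highest level per length of all 37 genes, at 629 and 890 CPM per kb of exon. HTB4 (AT5G59910) went from 449 ± 69 to 618 ± 26 CPM (0.46 ± 0.12, adjusted p = 0.016). HTB1 (AT1G07790) went from 195 ± 16 to 284 ± 22 CPM (0.54 ± 0.12, adjusted p = 0.0050). AT3G53650, a gene of low level, had the largest change of the class, from 26.9, 22.9 and 26.5 CPM to 41.7, 33.7 and 40.5 CPM (0.61 ± 0.17, adjusted p = 0.020). The groups were apart in these 4 genes.

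None of the 4 H2B calls stood in every fit that left out a library. HTB1 was lost without Dx6 (adjusted p = 0.0717). HTB2 was lost without CT2, Dx5 or Dx6 (highest 0.0794 without Dx6), and HTB4 without CT2, Dx4, Dx5 or Dx6 (highest 0.121 without Dx6). AT3G53650 was lost without CT2, Dx4 or Dx6 (highest 0.105 without CT2), in the DESeq2 Wald test (0.112) and with 8 dawn clock genes as a covariate (0.102). HTB11 (AT3G46030) missed the threshold at 0.40 ± 0.14 (adjusted p = 0.062), as did HTB9 (AT3G45980) at 0.24 ± 0.13 (adjusted p = 0.25), which shares 31.4% of its words with other genes. AT2G28720 stood at 35.0 ± 5.0 and 31.8 ± 2.7 CPM, and AT3G09480 at 8.36 ± 1.6 and 10.0 ± 0.93 CPM. AT5G02570, nested in HTA12, had 1 to 6 counts in a library and was not tested. All 9 genes summed to 1970, 1615 and 1510 CPM in mock and to 2220, 2257 and 2401 CPM with dexamethasone.

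**Figure D4:**
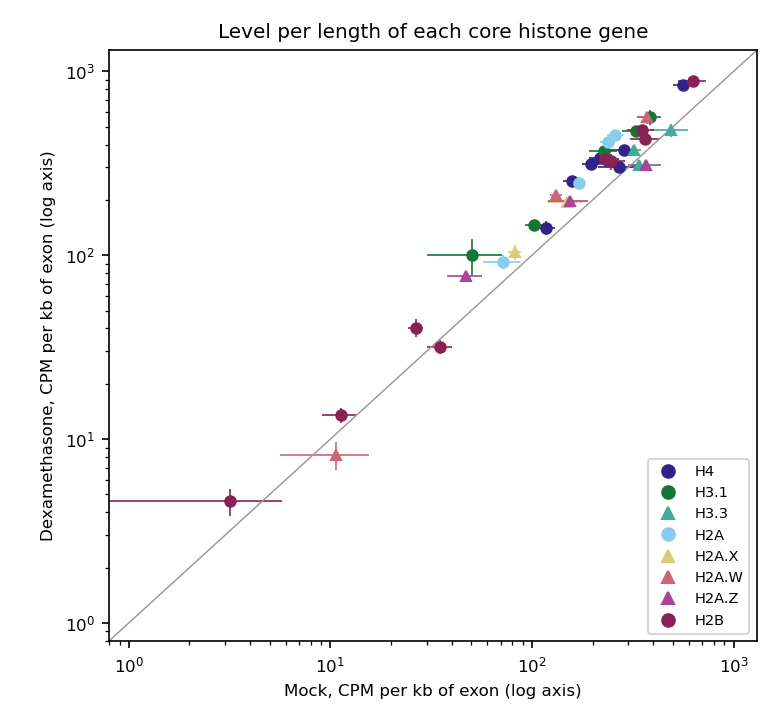
Mean CPM per kb of exon of each gene in mock (horizontal) and with dexamethasone (vertical), both on log axes, with bars of 1 SD over 3 libraries and the line of equal level. Genes of each replication-coupled class (circles) span a wide range of levels, for H4 from 117 to 562 and for H2B from 3.18 to 629 CPM per kb in mock, and most lie above the line.

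Levels per length place the genes on 1 scale. In mock the order from the top was HTB2 at 629, AT5G59690 (H4) at 562 and AT4G40040 (H3.3) at 491 CPM per kb of exon. With dexamethasone HTB2 at 890 and AT5G59690 at 843 were followed by AT5G65360 (H3.1) at 566 and HTA6 (H2A.W) at 561 CPM per kb, and AT4G40040 stood at 480. Within the H3 genes AT4G40040 thus had the highest level per length in mock and AT5G65360 with dexamethasone. Within H2A and its variants HTA6 and HTA9 were close in mock, at 371 and 367 CPM per kb, and HTA6 at 561 stood above HTA9 at 308 with dexamethasone. Genes with no intron in the coding sequence were called higher in 15 of 21 tested, and genes with one or more in 6 of 15. This split follows the classes, since H4, H3.1 and H2B genes have no such intron. Those with introns were the 4 canonical H2A genes, of which 3 were called, and the 11 variant genes, of which 3 were called.

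In the histone genes the dexamethasone libraries resembled each other more closely than the mock libraries did. The ratio of the highest to the lowest library of a gene had a median of 1.30 over the 36 tested genes in mock (range 1.13 to 2.40) and 1.10 with dexamethasone (range 1.01 to 1.46). CT1 was the highest mock library in 33 of 36 genes and in all 25 replication-coupled ones, and CT3 was the lowest in 23. A second replication readout was ordered the other way. The 14 S-phase genes were highest in CT3 in 13 cases and lowest in CT1 in 9. The 6 MCM genes, which encode the replicative helicase, were all highest in CT3 and lowest in CT1, at sums of 334, 446 and 652 CPM in CT1, CT2 and CT3 and 635, 608 and 622 CPM in Dx4, Dx5 and Dx6. Within mock the library with the most histone RNA thus had the least MCM RNA, and the MCM sum of CT3 was as high as those with dexamethasone.

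**Figure D5:**
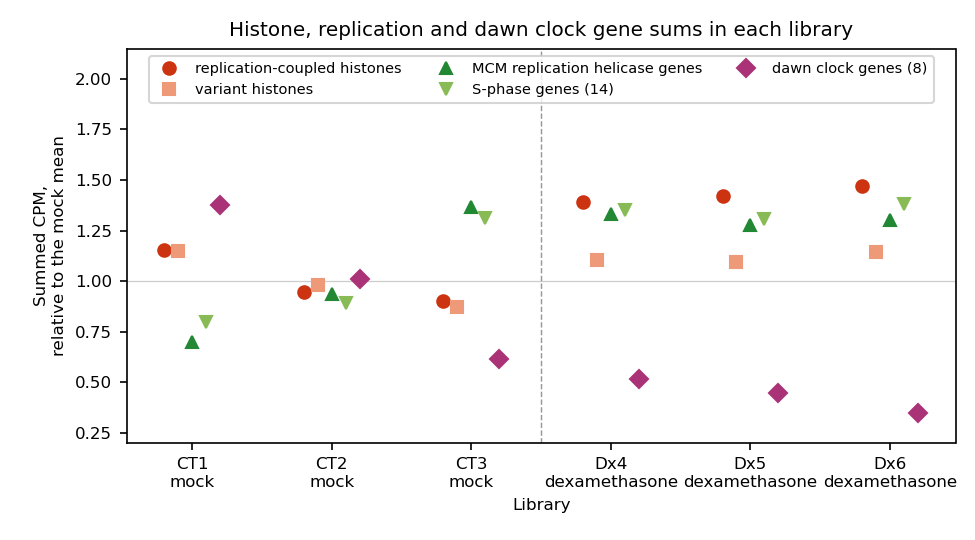
Summed CPM of replication-coupled histones, variant histones, MCM genes, S-phase genes and dawn clock genes in each library, divided by the mock mean of the sum. Within mock the histone sums fall from CT1 to CT3 with the dawn clock genes, while MCM and S-phase genes are highest in CT3, and the replication-coupled histone sums of the dexamethasone libraries, at 1.39 to 1.47, lie above all mock libraries.

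Several markers of time of day and of tissue moved with the groups. The 8 dawn clock genes summed to 165, 121 and 73.5 CPM in CT1, CT2 and CT3 and to 61.9, 53.5 and 41.4 CPM with dexamethasone. Of the 3 tested, LNK1 was lower (-1.21, adjusted p = 0.00091). With the mean log2 CPM of all 8 as a covariate, 26 histone genes were called higher and 0 lower, with a median log2 fold change of 0.69. Over all 15857 genes 877 were called higher and 1141 lower with this covariate. Of the 21 histone genes called without it 20 stayed called, and AT3G53650 was lost (0.57, adjusted p = 0.102). In this fit the log2 fold change was 1.87 for AT3G27360 and 0.69 for AT1G07820, and H2AXA was called (0.70, adjusted p = 0.00023). With the 3 tested dawn genes alone, a choice made after seeing the data, 15 histone genes were called higher and 0 lower. Of these 11 were among the 21, and the median was 0.71. Over all genes that fit called 206 higher and 402 lower. The mean log2 CPM of these 3 genes was 4.27 to 4.92 in mock and 3.56 to 3.95 with dexamethasone, so this covariate did not overlap between the groups, and in that fit its part and the treatment's can hardly be told apart. The score of all 8 did not overlap either, at 3.555, 2.952 and 2.082 in CT1, CT2 and CT3 and 1.719 to 2.047 with dexamethasone. The same limit thus applies to the fit with 8 genes, of which only 3 passed the filter on low counts. In both fits 35 of 36 values were positive, and AT4G40040 (0.34 and 0.49) and HTA9 (0.07 and 0.23) turned positive without a call. The 4 green leaf and stem markers were all lower, with sums of 9128, 8664 and 7556 CPM in mock and 4416, 4108 and 4139 CPM with dexamethasone. Of these the call of CAB3 was lost without CT2, Dx5 or Dx6 (adjusted p up to 0.0663 without Dx5). Of the 5 flower markers 2 were lower, AP1 (-0.92, adjusted p = 0.00014) and SEP3 (-0.97, adjusted p = 0.00012). Not called were AP3 (0.32, adjusted p = 0.091), PI (0.037) and AG (-0.15), so the flower markers did not move alike. The list of 5 summed to 763, 865 and 876 CPM in mock and 663, 659 and 675 CPM with dexamethasone. Of the 6 apex markers, with sums of 203 to 249 CPM in mock and 262 to 279 CPM with dexamethasone, CLV1 was higher (0.72, adjusted p = 0.0018) and TFL1 lower (-1.59, adjusted p = 0.042, lost without CT1, Dx4, Dx5 or Dx6 with adjusted p up to 0.212 without CT1). With the 8 dawn genes as a covariate the log2 fold change of TFL1 was -0.20 (adjusted p = 0.879). Without a covariate limma-voom called 0 apex markers lower and the DESeq2 Wald test 1. The part of tissue makeup in the histone values was not tested.

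Genes outside the core set that encode or handle histones were read in the same fit. Of 8 other H3, H2A and H2B genes 2 could be tested and both were higher. These were HTR12, which encodes the centromeric H3 (27.1 to 41.6 CPM, 0.61, adjusted p = 0.017), and HTR11 (10.6 to 18.5 CPM, 0.83, adjusted p = 0.031). The call of HTR12 was lost without Dx4 or Dx5 (up to 0.085 without Dx4) and that of HTR11 without each library except CT1 (up to 0.119 without Dx4). Of the 15 histone chaperones 0 were called in either direction, with 2 higher and 0 lower at an unadjusted p under 0.05 and 0 by DESeq2 or limma-voom. Their sums were 1351, 1308 and 1467 CPM in mock and 1406, 1392 and 1405 CPM with dexamethasone. FAS1 and FAS2, subunits of CAF-1, had log2 fold changes of 0.40 and 0.30, and HIRA, the H3.3 chaperone, of 0.35, none past the threshold. These 3 do not stand for the list, in which 8 of 15 values were positive and the median was 0.023. Of 11 writers, readers and remodellers of variant histones 1 was higher, against 5.86% of all genes tested, and the list median was 0.059. The 1 was ATXR6, which methylates lysine 27 of H3.1 (9.79 to 16.9 CPM, 0.77, adjusted p = 0.042). That call was lost without each library except CT3 (up to 0.167 without Dx5) and with the 8 dawn genes as a covariate (0.246).

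Of the 14 S-phase genes 4 were higher and 0 lower, with a median log2 fold change of 0.43. They were PCNA1 (0.51, adjusted p = 0.028), PCNA2 (0.47, adjusted p = 0.022), the ribonucleotide reductase gene TSO2 (0.43, adjusted p = 0.048) and CDC45 (0.62, adjusted p = 0.0496). Each was lost in 4 or more of the 6 fits without a library. The highest adjusted p was 0.18, 0.137 and 0.269 for PCNA1, PCNA2 and TSO2 without CT2 and 0.197 for CDC45 without Dx5. With the 8 dawn genes as a covariate none of the 4 was called, and PCNA1 had a log2 fold change of 0.24 (adjusted p = 0.391). In the list of 12 genes of G2 and M phase, 2 passed upwards and 0 downwards, CDKB1;2 (0.64, adjusted p = 0.020) and AUR1 (0.57, adjusted p = 0.013), at a median of 0.17. CDKB1;2 was lost without CT2, Dx5 or Dx6 (up to 0.115 without Dx5) and AUR1 without Dx5 or Dx6 (up to 0.0851 without Dx6). The DESeq2 Wald test called 0 genes of the S-phase list, the G2 and M list and the list of other histone genes. By limma-voom 3, 2 and 2 genes of these lists were higher and 0 lower.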

How the data were processed

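The deposited table gives whole-number counts per locus, which the authors left unscaled. Per the labels' protocols the libraries were stranded and poly(A) selected. TopHat, Bowtie, RSEM and Cufflinks are named in the submitters' processing notes without versions, and the genome build and strand setting were not given in the sources used. Column headings tie each library to a group but not to a numbered sample. No label says whether replicates are independent plants, and the p-values therefore reflect only how far these samples differ, possibly for technical reasons.

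The test was edgeR 4.0.16 under R 4.3.3 (TMM, filterByExpr with a minimum count of 10, robust glmQLFit and glmQLFTest, two-sided), and it was tested on simulated data. The SE is the log2 fold change over the square root of F. CPM are deposited counts over TMM-scaled library sizes. A count of 0 allows up to 3 counts, or 1.38 to 1.88 CPM, which covers counting error only. DESeq2 1.42.0 and limma 3.58.1 (voom) served as alternatives. RefSeq TAIR10.1 gave names, promoters and the share of each gene's 50-base words found in exons of other genes on either strand.

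The members and lists were chosen with earlier results of these data known. Genes named are AP2, every member past the threshold, the highest and most changed member of each class, and the called genes of other lists. Other genes are given by value, and FAS1, FAS2, HIRA, STM, KNAT1, WUS, CLV3, AP3, PI and AG were named after their values were seen. The share among genes of at least 20 CPM was also added after seeing the data.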

Additional observations from a re-analysis of the deposited data

How the results depend on the processing

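Of 36 histone genes tested (37 with the filter of 1 count in all), 19 to 23 were called higher and 0 lower under other scalings (DESeq2's size factors, library size only), other filters (1 count in all, 5 CPM in 3 libraries), other tests (DESeq2 Wald, limma-voom) and an adjusted p under 0.1. Under these settings 549 to 1317 of all genes tested were called higher and 815 to 1679 lower. Over the fits that left out 1 library the count of histone genes called higher ran from 11 to 26. For replication-coupled genes it ran from 8 to 21 and for variant genes from 3 to 5, with 0 to 1 lower. Over all genes it ran from 441 to 1816 higher and from 668 to 1974 lower. With the 8 dawn genes as a covariate 5 variant genes were called higher, and over all genes 877 higher and 1141 lower. With the 3 tested dawn genes, added after seeing the data, 10 replication-coupled and 5 variant genes were, and over all genes 206 higher and 402 lower. The DESeq2 Wald test called 549 higher and 815 lower over all genes. The cause of these differences was not tested. The log2 fold change of AT4G40040 turned to 0.34 with the 8 dawn genes, 0.49 with 3, 0.11 without CT1 and 0.03 without Dx4 (-0.18 without CT3), and that of HTA9 (AT1G52740) to 0.074 and 0.23 with the 8 and the 3 dawn genes. The log2 ratio of dexamethasone to mock of each class sum moved by less than the spread between libraries under each scaling, without each library, and without genes that share at least 20% of their words. Small ones still turned sign or changed in size: H2A.Z from 0.058 to -0.080 without CT3 and 0.19 without CT1, H3.3 from -0.010 to 0.098 without CT1, 0.016 without Dx4 and 0.0077 with library size only, and the variant sum from 0.16 to 0.067 without CT3 and 0.27 without CT1. The ratios between classes were not recomputed. Scalings moved the median of all genes by under 0.1 on the log2 scale. No paired analysis was possible because the column numbers of the dexamethasone libraries match no sample title. At 1633571 to 2196781 counts a library, genes near 10 CPM or below, such as AT3G09480, HTA12 and AT5G02570, rest on few counts.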
